A study of Mus musculus with 6 samples.

Results

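Chemokine ligands are small secreted proteins that draw leukocytes along a concentration gradient through receptors on the cell surface. Their classes are named for the spacing of conserved cysteines near the amino end: CXC ligands such as Cxcl1 and Cxcl2 attract neutrophils, CC ligands such as Ccl3 attract monocytes and lymphocytes, and the C ligand Xcl1 attracts a class of dendritic cells. In the thymus, Cxcl12 and Ccl25 from stromal and epithelial cells guide immature thymocytes through their receptors Cxcr4 and Ccr9. The 10 ligands described here, Cxcl1, Cxcl2, Ccl3, Ccl4, Ccl5, Ccl6, Ccl9, Xcl1, Cxcl12 and Ccl25, were chosen by name with earlier results of these data known, so their differences between TCDD and dioxane are given as a description with no test. They are 10 of the 12393 genes with a probe set of their own and were read by 13 of 20380 such probe sets.

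RNA came from CD4-CD8- double-negative (DN) cells, a fraction that holds the earliest T-cell precursors and any other cell lacking both markers. Thymus lobes of C57BL/6 fetuses were taken at day 15 of gestation and cultured for 6 days, to an age of 21 days after conception, with the dioxin TCDD at 10 nM or with its solvent, dioxane. TCDD activates the aryl hydrocarbon receptor (AHR), a transcription factor. The groups were emigrants with TCDD (2 arrays), emigrants with dioxane (2 arrays), thymocytes with TCDD (1 array) and thymocytes with dioxane (1 array). Emigrants were the cells flushed off the lobes and thymocytes those released by grinding them. Every sample was wild type, was a pool of cells, and was enriched with CD4 and CD8 beads to over 95% purity. The labels state the dioxane concentration, 0.1% by volume, for the thymocyte sample, and they number the emigrant arrays 1 and 2. Whether the 2 emigrant arrays of a treatment hold independent cultures is not stated, so the p-values reflect array-to-array spread alone, which may be technical. The number of arrays limits the precision.

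Values are log2 expression on the authors' normalised scale, where a difference of 1 is 2-fold. The highest of 27 probe sets for bacterial transcripts, used here as a ceiling of background, read 4.32 to 4.92 by array, and 8 of the 10 ligands exceeded it on all 6 arrays. The emigrant arrays numbered 1 stood apart. The mean of 7 erythroid markers was 6.2 and 6.6 in TCDD and dioxane emigrants numbered 1. It was 4.4 and 4.5 in those numbered 2, and 4.5 and 4.6 in TCDD and dioxane thymocytes. The mean of 13 neutrophil marker genes was 9.18 in TCDD emigrants and 8.31 in dioxane emigrants numbered 1, 7.17 and 5.91 in those numbered 2, and 5.24 and 5.25 in TCDD and dioxane thymocytes. The mean of 13 T-lineage DN markers was 5.63 and 5.74 in TCDD and dioxane emigrants numbered 1, 6.52 and 8.19 in those numbered 2, and 7.51 and 8.47 in thymocytes, so the defining markers of the labelled cell type were weakest in the arrays numbered 1. In bulk RNA, fewer cells of a type and less RNA per cell cannot be told apart. The AHR target Cyp1b1 read 5.90 and 8.95 in TCDD emigrants, 4.66 and 4.72 in dioxane emigrants, 10.35 in TCDD thymocytes and 6.73 in dioxane thymocytes. Cyp1a1 read 4.22 and 5.98 in TCDD emigrants, 3.96 and 3.84 in dioxane emigrants, and 7.88 and 3.99 in TCDD and dioxane thymocytes. Tiparp read 6.66 and 9.82, 6.66 and 6.33, and 9.35 and 6.29 in the same order. In TCDD emigrants numbered 1, Cyp1a1 lay under the highest control (4.92) and Tiparp did not exceed dioxane emigrants numbered 1. The median TCDD minus dioxane difference of 8 AHR targets was 0.12 within the emigrants numbered 1, 2.08 within those numbered 2 and 3.34 in thymocytes. The 3' over 5' signal of the beta-actin control probe sets, a sign of RNA quality, was 3.77 and 3.36 log2 units in TCDD emigrants against 3.06 and 3.01 in dioxane emigrants, and 4.15 in TCDD thymocytes against 3.48 in dioxane thymocytes. The same measure for Gapdh was 5.60 and 4.75 in TCDD emigrants against 4.75 and 4.69 in dioxane emigrants, and 5.86 in TCDD thymocytes against 6.10 in dioxane thymocytes. The actin measure was higher with TCDD in each pair and the Gapdh measure was lower with TCDD in thymocytes, and their part in the differences below was not tested.

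The question of the first comparison was which ligands differed with TCDD. In emigrants, 7 of the 10 ligands were higher on both TCDD arrays than on both dioxane arrays: Cxcl1, Cxcl2, Ccl3, Ccl4, Ccl6, Ccl9 and Cxcl12. Over all genes 10.5% lay in that position, and since the ligands were chosen with this contrast known, nothing is read from the difference (14.2% of all genes lay the other way, and no ligand did). The median difference, TCDD minus dioxane, was 1.44 over the 10 ligands and -0.02 over all genes. Within the emigrants numbered 1 the median was 0.90, with 5 ligands at least 2-fold higher (3.66% of all genes), and within those numbered 2 it was 1.74, with 6 ligands at least 2-fold higher (3.43% of all genes). In thymocytes the median was 0.47, and Cxcl1, Cxcl2 and Ccl5 were at least 2-fold higher (2.83% of all genes). No ligand was 2-fold lower within number 1 (2.56% of all genes), within number 2 (2.16%) or in thymocytes (2.79%). Cxcl1, Cxcl2, Ccl3, Xcl1 and Cxcl12, 5 of the 10, were higher with TCDD in all 3 pairs of arrays, as were 15.4% of all genes. For Xcl1 the difference was only 0.05 within each emigrant number. As a measure of the spread within a treatment, the arrays numbered 1 were at least 2-fold above those numbered 2 for 3.81% of genes and below for 5.87% in TCDD emigrants, and for 4.71% and 7.83% in dioxane emigrants. Limma called 0 of 12393 genes (0%) between TCDD and dioxane in emigrants at an adjusted p under 0.05, and 1.24% were higher and 0.815% lower at an unadjusted p under 0.05. Over both cell sources limma also called 0 genes, and 2.69% were higher and 2.63% lower at an unadjusted p under 0.05.

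**Figure D1:**
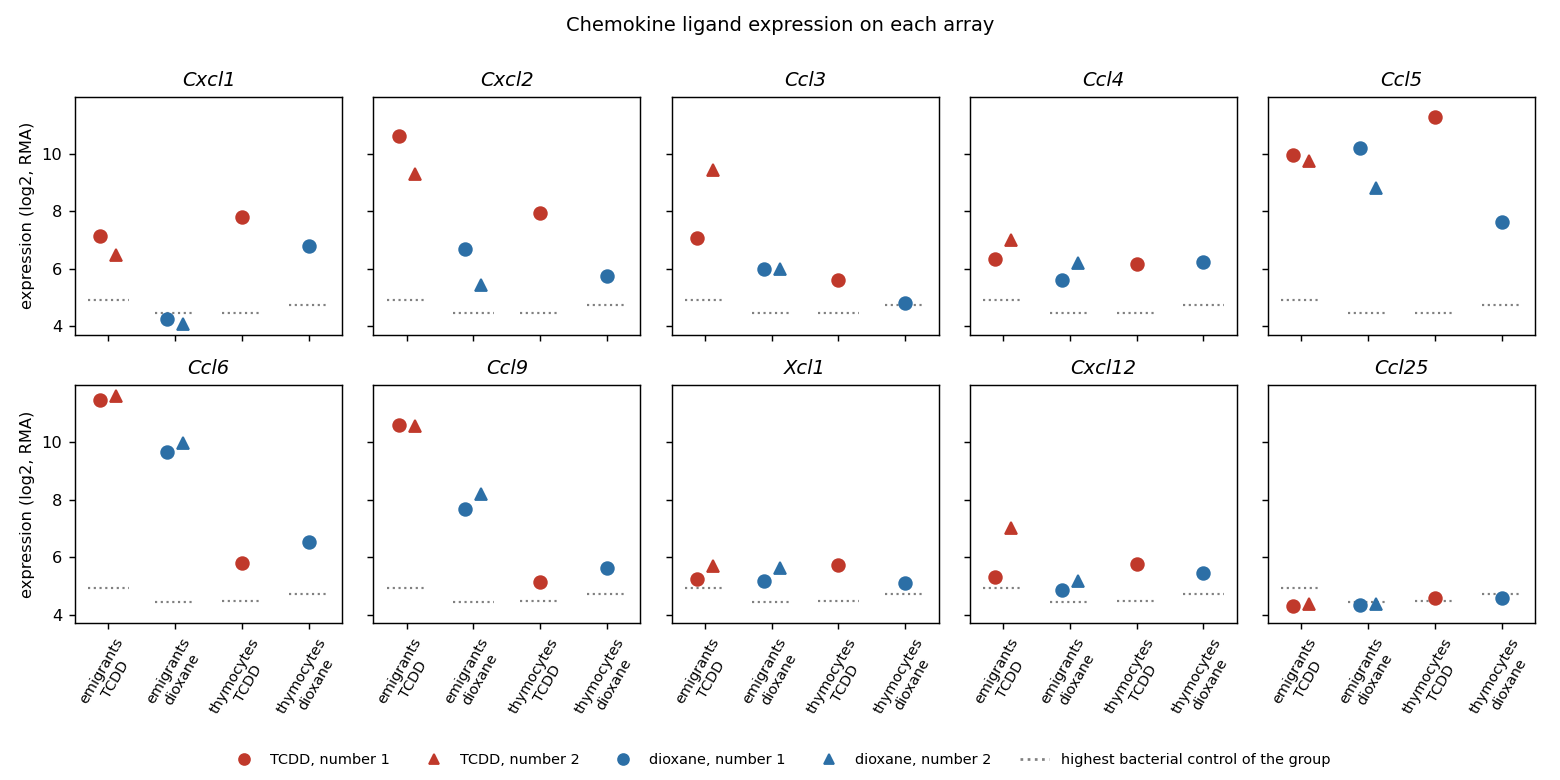
Log2 expression of each ligand (vertical axis) on the 6 arrays, grouped by cell source and treatment (horizontal axis). Circles are arrays numbered 1, triangles those numbered 2, and the dotted line is the highest bacterial control among the arrays of the group. Cxcl2, Ccl6 and Ccl9 lie higher on both TCDD emigrant arrays than on both dioxane emigrant arrays, and Ccl25 stays near the control on all 6.

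Cxcl2, a neutrophil attractant that acts through Cxcr2, had the largest difference of the 10 in emigrants. It read 10.60 and 9.27 in TCDD emigrants, against 6.69 and 5.44 in dioxane emigrants, and 7.94 in TCDD thymocytes, against 5.76 in dioxane thymocytes. The TCDD array was the higher within each cell source, and the lowest TCDD value of the 6 arrays exceeded the highest dioxane value. The fitted difference in emigrants was 3.87 ± 0.64 (SE, n = 2 per group), a 14.7-fold ratio, and it was 3.91 within number 1, 3.84 within number 2 and 2.18 in thymocytes.

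Cxcl1, its close relative with the same receptor, followed the TCDD label in each pair too but had a different order of sources. It read 7.14 and 6.48 in TCDD emigrants, against 4.24 and 4.08 in dioxane emigrants, and 7.80 in TCDD thymocytes, against 6.79 in dioxane thymocytes. Both dioxane emigrant values lie under the highest control of their arrays (4.32 and 4.45), while dioxane thymocytes were well above it, so the Cxcl1 signal of the dioxane cultures was measured in thymocytes and not above background in emigrants. Against those controls Cxcl1 was at least 5.39-fold higher in TCDD emigrants (fitted difference of the measured values 2.65 ± 0.31, SE). In thymocytes the ratio was 2.02-fold. Cxcl1 and Cxcl2 were the 2 ligands of 10 at least 2-fold higher in all 3 pairs of arrays, where 22 of 12393 genes (0.178%) were. With cell source in the model, their differences over 3 TCDD and 3 dioxane arrays were 2.11 ± 0.39 and 3.31 ± 0.58 (SE).

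The promoters of these ligands are shown because both genes were higher with TCDD in every pair and lie near each other on chromosome 5. Sequences are from RefSeq (GRCm38.p6), each running 250 bases before to 50 bases after the start site, on the plus strand. Capitals mark matches to GGG and TTTCC separated by 2 bases of any kind, a form of the NF-κB site, or to GCGTG, the core of the AHR response element, each searched on both strands.
Cxcl1, chr5:90890995-90891294: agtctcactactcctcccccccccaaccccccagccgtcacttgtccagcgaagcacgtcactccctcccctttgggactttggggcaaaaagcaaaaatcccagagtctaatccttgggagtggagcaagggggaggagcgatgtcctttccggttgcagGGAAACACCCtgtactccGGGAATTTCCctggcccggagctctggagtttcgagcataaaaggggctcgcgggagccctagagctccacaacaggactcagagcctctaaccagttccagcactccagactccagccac
Cxcl2, chr5:90903649-90903948: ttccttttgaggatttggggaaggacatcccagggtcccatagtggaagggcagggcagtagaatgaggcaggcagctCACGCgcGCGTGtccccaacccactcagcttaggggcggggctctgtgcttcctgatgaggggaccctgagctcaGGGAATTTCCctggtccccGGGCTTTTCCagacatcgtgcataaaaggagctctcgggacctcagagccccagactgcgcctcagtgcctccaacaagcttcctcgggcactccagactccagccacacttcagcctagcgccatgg
The NF-κB form was found 2 times in each, starting 89 and 71 bases upstream in Cxcl1 and 97 and 78 bases upstream in Cxcl2. The AHR core was found 2 times in Cxcl2, starting 172 and 165 bases upstream on opposite strands, and 0 times in the Cxcl1 window. No match overlapped another. Of 32851 promoter windows of this length in the table, 1.63% held the NF-κB form and 32.4% the AHR core. The table held windows for 8 of the 10 ligands, Ccl4 and Ccl5 being the others. Among the rest, Ccl9 held 1 match to the NF-κB form and the 2 windows of Ccl25 held 1 AHR core each, while Xcl1, Cxcl12, Ccl6 and Ccl3 held neither. A match is a run of letters and was not tested as a binding site. NF-κB is a transcription factor of inflammatory signalling. In a list of genes of that signalling, 12 of 14 were higher with TCDD in emigrants (median 0.32) and 13 of 14 in thymocytes (median 0.26). Over all 12393 genes 5765 were higher in emigrants and 6380 in thymocytes. Tnfaip3 (-0.29) and Nfkb2 (-0.35) were lower in emigrants, and 3 of the 14 lay under the control on all arrays. The part of NF-κB in the ligand differences was not tested. Of the list, 0 genes passed in limma and 3 had an unadjusted p under 0.05 in emigrants, all higher. Over all genes 1.24% were higher and 0.815% lower at that limma threshold. The list was chosen with earlier results known, so nothing is read from this count.

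Ccl6 and Ccl9 are macrophage and myeloid CC ligands of rodents that act through Ccr1 and lie near each other on chromosome 11. Ccl9 read 10.59 and 10.57 in TCDD emigrants, against 7.68 and 8.18 in dioxane emigrants, and 5.12 in TCDD thymocytes, against 5.64 in dioxane thymocytes. Ccl6 read 11.47 and 11.60 in TCDD emigrants, against 9.66 and 9.96 in dioxane emigrants, and 5.78 in TCDD thymocytes, against 6.54 in dioxane thymocytes. For both ligands the 4 emigrant arrays stood above both thymocyte arrays, the TCDD emigrant arrays stood above the dioxane emigrant arrays, and in thymocytes the TCDD array was the lower. The fitted differences with TCDD in emigrants were 2.65 ± 0.27 for Ccl9 and 1.72 ± 0.24 for Ccl6 (SE, n = 2 per group), against single-array differences of -0.52 and -0.76 in thymocytes.

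Many markers of myeloid cells were higher on the same arrays. Of 18 macrophage and dendritic markers 15 were higher in TCDD emigrants by group mean (median 1.12), as were 12 of 13 neutrophil markers (median 1.15). Over all genes 5765 of 12393 were. Within the emigrants numbered 1, 12 of the 18 were higher (median 0.28), and within those numbered 2 all 18 were (median 1.74). Within numbers 1 and 2 the differences were 1.80 and 1.64 for Ccl6 and 2.90 and 2.39 for Ccl9. In 5 of the 18 macrophage and dendritic markers, both TCDD emigrant arrays exceeded both dioxane emigrant arrays, the order that Ccl6 and Ccl9 had. These were Cd68, Lyz2, Fcgr1, Clec4d and Msr1. Over all genes 10.5% had that order. So did 6 of 13 fibroblast and stromal markers, 4 of 8 AHR targets and 0 of 13 T-lineage DN markers, so the order is not particular to myeloid markers. Clec4d, a myeloid lectin, read 9.73 and 9.35 in TCDD emigrants against 6.89 and 6.44 in dioxane emigrants. Lyz2, the lysozyme of macrophages and granulocytes, read 11.93 and 11.04 in TCDD emigrants against 9.93 and 9.75 in dioxane emigrants. Msr1, a scavenger receptor of macrophages, read 8.37 and 8.99 in TCDD emigrants against 7.55 and 6.62 in dioxane emigrants. The other 13 macrophage and dendritic markers overlapped between the treatments. Csf1r, the macrophage growth factor receptor, read 12.39 and 10.47 in TCDD emigrants and 12.59 and 8.64 in dioxane emigrants. The list means were 8.74 and 7.77 in TCDD emigrants and 8.21 and 6.33 in dioxane emigrants. The part of myeloid cells in the Ccl6 and Ccl9 differences was not tested. In thymocytes the marker mean was 5.33 with TCDD and 5.32 with dioxane. Of the 18 markers 1, Itgam, stayed under the highest control on all arrays. The second probe set of Ccl6 gave 9.28 and 10.11 in TCDD emigrants against 7.55 and 7.88 in dioxane emigrants, the same order. The second of Ccl9 lay under the control on 5 of 6 arrays and gave a difference of 0.21 in emigrants, so the Ccl9 result rests on a single probe set.

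Ccl3 and Ccl4 are inflammatory CC ligands for monocytes and lymphocytes. Ccl3 read 7.06 and 9.43 in TCDD emigrants, against 6.00 and 5.97 in dioxane emigrants, and 5.59 in TCDD thymocytes, against 4.82 in dioxane thymocytes. The emigrant groups did not overlap, but the TCDD arrays lay 2.37 apart, and the difference was 1.06 within number 1 and 3.46 within number 2 (fitted 2.26 ± 0.81, SE). Without the TCDD array numbered 2 the emigrant difference was 1.08, and without the TCDD array numbered 1 it was 3.44. Ccl4 read 6.34 and 7.01 in TCDD emigrants, against 5.61 and 6.21 in dioxane emigrants, and 6.17 in TCDD thymocytes, against 6.23 in dioxane thymocytes. Its difference in emigrants was 0.77 ± 0.37 (SE), with 0.73 and 0.80 within the numbers, and it was -0.07 in thymocytes.

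Ccl5, a ligand for T cells and monocytes made by activated and cytotoxic lymphocytes, had the largest TCDD difference of the 10 in thymocytes and none that separated the groups in emigrants. It read 11.28 in TCDD thymocytes, against 7.61 in dioxane thymocytes, a difference of 3.67 or 12.7-fold with 1 array each. In emigrants it read 9.94 and 9.73 with TCDD, against 10.18 and 8.79 with dioxane, so the groups overlapped (0.34 ± 0.51, SE). Of 13 NK and cytotoxic markers 10 were higher on the same array (median 0.95), as were 6380 of all 12393 genes. The list means were 7.21 against 6.19. Gzmb, a granule protease with the largest difference of the list, read 10.22 in TCDD thymocytes against 6.11 in dioxane thymocytes. Nkg7 read 10.00 against 8.26. Gzma, the marker of highest mean, read 12.14 against 12.20, and Ncr1 and Fasl were also lower with TCDD. The part of NK and cytotoxic cells in the Ccl5 difference was not tested. In emigrants 4 of the 13 were higher with TCDD (median -0.23). Xcl1, a product of activated T and NK cells, read 5.24 and 5.68 in TCDD emigrants, against 5.18 and 5.63 in dioxane emigrants, and 5.72 in TCDD thymocytes, against 5.10 in dioxane thymocytes. Its emigrant groups overlapped (0.05 ± 0.30, SE), and the thymocyte difference was 0.62.

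Cxcl12 and Ccl25 are the ligands of thymic stroma and epithelium. Cxcl12 read 5.32 and 7.00 in TCDD emigrants, against 4.85 and 5.17 in dioxane emigrants, and 5.76 in TCDD thymocytes, against 5.44 in dioxane thymocytes. A single array, the TCDD emigrants numbered 2, carried most of the emigrant difference (1.15 ± 0.60, SE), which was 0.31 without it and 1.99 without the TCDD array numbered 1. The same array had the higher fibroblast marker mean among the emigrants, with 5.01 and 6.50 in TCDD emigrants and 4.72 and 4.71 in dioxane emigrants over 13 genes. In thymocytes the mean of that list was 6.32 with TCDD and 6.73 with dioxane, on either side of that emigrant array, while Cxcl12 in those thymocytes read 5.76 and 5.44. Col3a1, a fibrillar collagen, read 6.54 and 9.67 in TCDD emigrants and 4.33 and 5.18 in dioxane emigrants, and 9.0 in both TCDD and dioxane thymocytes. The part of stromal cells in the Cxcl12 value was not tested. The second Cxcl12 probe set exceeded the control on 3 of 6 arrays and overlapped between the emigrant groups (3.96 and 5.04 with TCDD, 4.31 and 4.21 with dioxane). Its TCDD minus dioxane difference was -0.35 within number 1, 0.83 within number 2 and -0.19 in thymocytes. Ccl25 ranged over 0.29 in all and exceeded the highest control on 3 of 6 arrays, so its differences cannot be told from background. Of 14 thymic epithelial markers 5 lay under the control on all 6 arrays, among them Foxn1, the factor that defines that epithelium. The others exceeded it on at least 4 arrays. Epcam, the marker of highest mean, read 7.35 and 6.67 in TCDD and dioxane thymocytes. It read 5.44 and 4.89 in TCDD emigrants and 5.08 and 5.69 in dioxane emigrants.

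**Figure D2:**
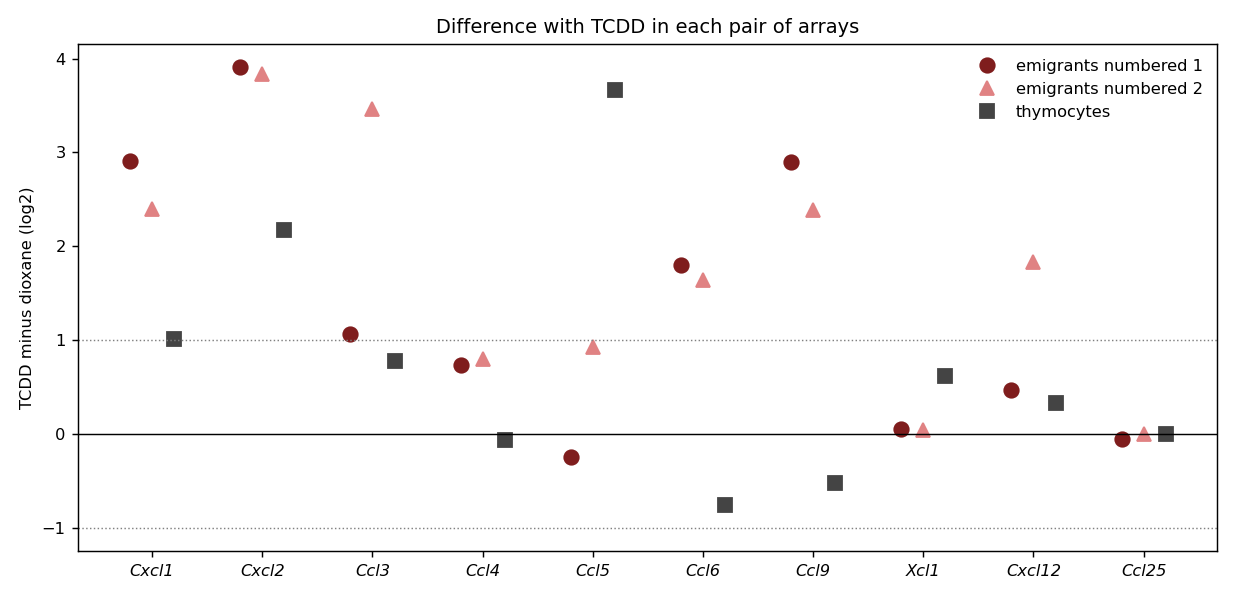
Difference between the TCDD and the dioxane array (log2, vertical axis) for each ligand (horizontal axis) in emigrants numbered 1, emigrants numbered 2 and thymocytes. Dotted lines mark a 2-fold difference. Cxcl1 and Cxcl2 exceed it in all 3 pairs, Ccl6 and Ccl9 in both emigrant pairs with values of -0.76 and -0.52 in thymocytes, and Ccl5 exceeds it in thymocytes.

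The next comparison set emigrants (4 arrays) against thymocytes (2 arrays) with treatment in the model. The ligands were chosen with earlier results known, so the p-values, adjusted over all genes, are not independent of that choice. Ccl6 averaged 10.67 ± 1.00 in emigrants and 6.16 ± 0.53 in thymocytes (SD, n = 4 and n = 2), and its fitted difference was 4.51 ± 0.55 (SE). Ccl9 averaged 9.25 ± 1.54 in emigrants and 5.38 ± 0.37 in thymocytes, with a difference of 3.88 ± 0.70. By p they ranked 10 and 74 among 12393 genes, but neither passed in limma over all genes (adjusted p = 0.320 and 0.325). Over the alternatives tried the adjusted p ran from 0.0395 to 0.735 for Ccl6 and from 0.111 to 1.0 for Ccl9, and Ccl6 passed in 1 of 14, without the emigrant arrays numbered 2. Limma called 0 genes in all (0%), and 3.2% were higher in emigrants and 3.9% lower at an unadjusted p under 0.05. Ccl3 differed by 1.92 ± 0.71 (adjusted p = 0.676) and Cxcl2 by 1.15 ± 0.62 (adjusted p = 0.833), neither passing. Without the TCDD thymocyte array the difference was 2.29 for Ccl9, 1.17 for Ccl3 and 0.31 for Cxcl2, and without the dioxane thymocyte array it was 5.46 for Ccl9, 2.66 for Ccl3 and 2.00 for Cxcl2. For Ccl6 it ran from 3.27 to 5.75 when single arrays were left out.

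Cxcl1 ran the other way. It averaged 5.49 ± 1.56 in emigrants and 7.29 ± 0.72 in thymocytes, a difference of -1.81 ± 0.42 that did not pass in limma (adjusted p = 0.448). It was -2.63 without the TCDD thymocyte array and -0.99 without the dioxane thymocyte array, and 2 of the 4 emigrant values, those with dioxane, were not above background. Ccl4, Ccl5, Xcl1, Cxcl12 and Ccl25 differed by 0.09, 0.22, 0.02, -0.02 and -0.23, with adjusted p of 0.896 to 0.999 in limma. For Ccl5 the difference was 1.88 without the TCDD thymocyte array and -1.44 without the dioxane thymocyte array. Ccl3, Ccl6 and Ccl9 were higher on all 4 emigrant arrays than on both thymocyte arrays, 3 of 10 ligands against 5.46% of all genes, and Ccl25, near background, was lower on all 4 (10.8% of all genes). All 18 macrophage and dendritic markers had a higher fitted level in emigrants (median 2.35), and 12 of 13 neutrophil markers did (median 2.29). Over all genes 5456 of 12393 did. In limma 11 of the 18 had an unadjusted p under 0.05, against 3.2% of all genes higher, and 0 passed. Their part in the differences between the sources was not tested.

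**Figure D3:**
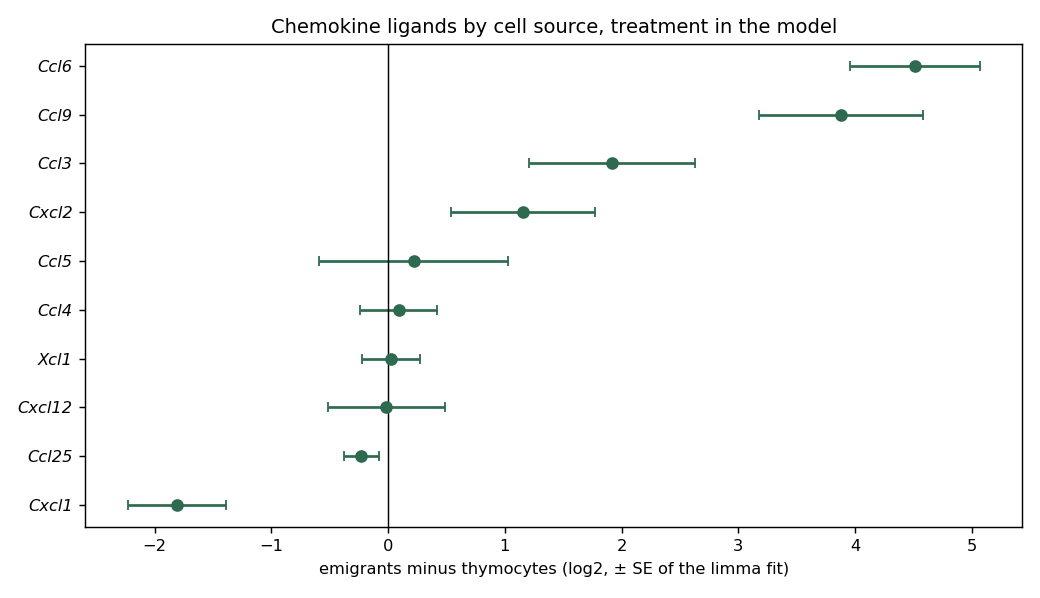
Fitted difference between emigrants and thymocytes (log2, horizontal axis, bars are SE) for the 10 ligands (vertical axis). Ccl6 and Ccl9 lie at 4.51 and 3.88 and Cxcl1 at -1.81, and none passed after adjustment over all genes.

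To set the ligands beside possible cell sources, the order of the 6 arrays by each ligand was compared with their order by the mean of each marker list, over the 15 pairs of arrays. These pairs share arrays, and the counts are a description. Lists mostly at background matched some ligands as closely as the named ones, so a high count does not single out a source. Ccl9 put 12 of 15 pairs in the same order as the macrophage and dendritic markers and 13 as the neutrophil markers, Ccl6 put 11 and 12, and Ccl3 put 13 and 12. The same ligands matched the T-lineage order in 4, 5 and 3 pairs. These ligands and both myeloid list means were higher on every emigrant array than on either thymocyte array. Every pair of arrays from different sources therefore agrees through that difference alone. Within the emigrants the orders matched in part. Within each number these ligands and both list means were higher with TCDD. Across the numbers they differed. The macrophage and neutrophil means were higher in dioxane emigrants numbered 1 (8.21 and 8.31) than in TCDD emigrants numbered 2 (7.77 and 7.17). On those 2 arrays Ccl6 read 9.66 and 11.60, Ccl9 7.68 and 10.57, and Ccl3 6.00 and 9.43. Cxcl2 matched the inflammatory signal genes in 13 pairs, the AHR targets in 12 and the macrophage markers in 11. Cxcl1 matched the AHR targets in 12 pairs, the fibroblast markers in 11 and the macrophage markers in 7, but also the endothelial markers in 12, of which 5 of 8 lay under the control on all arrays, and the B-lineage markers in 11, of which 3 of 7 did. Cxcl12 matched the fibroblast markers and the gamma-delta and innate-like T markers in 12 pairs each, the AHR targets in 11 and the macrophage markers in 6. Xcl1 matched the NK and cytotoxic markers in 13 pairs, over a range of 0.62 log2 units. It also matched the chemokine receptors in 13 pairs and the AHR targets in 12. The gamma-delta and innate-like T markers, the inflammatory signal genes and the other chemokine ligands matched it in 11 each. Ccl5 matched the inflammatory signal genes and the B-lineage markers in 12 pairs each, the AHR targets in 11, and the NK and cytotoxic and the macrophage markers in 10 each. Its level in dioxane emigrants numbered 1 (10.18) was above that in dioxane emigrants numbered 2 (8.79), where the NK list mean was the higher (6.62 in number 1 and 7.13 in number 2).

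**Figure D4:**
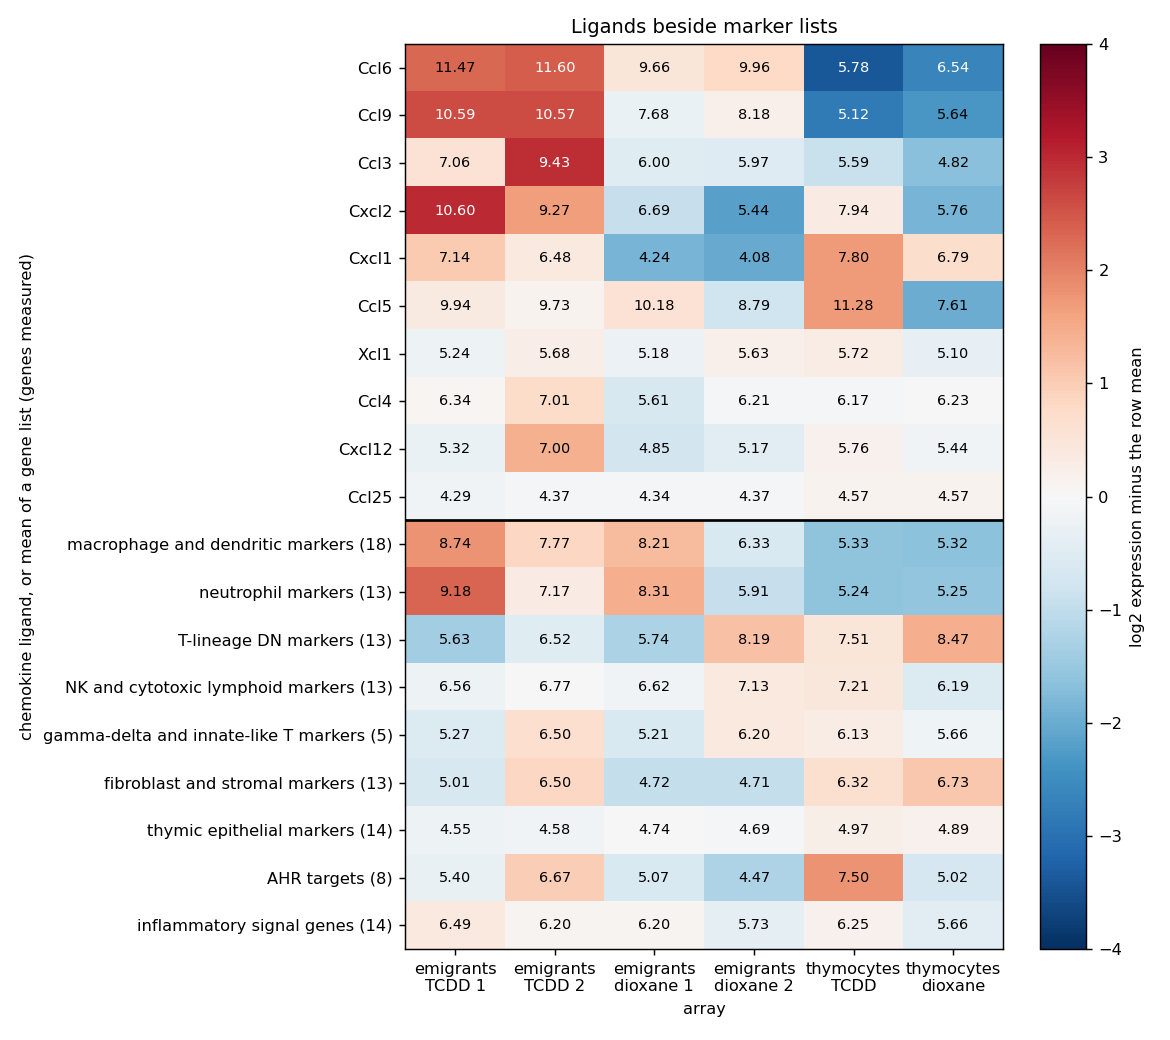
Log2 expression of the 10 ligands (upper block) and mean log2 expression of marker lists (lower block) on the 6 arrays (columns), with the number of genes measured in brackets. Colour is the difference from the row's own mean, so rows are compared by pattern and not by level. Ccl6 and Ccl9 are lowest on the thymocyte arrays, as are the macrophage and neutrophil lists, while Cxcl1 is highest in TCDD thymocytes.

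Likeness to single genes was measured as the root-mean-square difference over the 6 arrays after each gene's mean was removed. The 3 genes nearest to Ccl6 were Apoe (0.29 log2 units), a lipid carrier of macrophages, Lyz2 (0.39) and Ccl9 (0.49). Nearest to Ccl9 were Ccl6 (0.49), Apoe (0.50) and Clec4d (0.56). All of these were lower on both thymocyte arrays than on every emigrant array, so the matches rest largely on the difference between sources. Ccl3 was nearest to Ccr1 (0.34), a receptor for it, Slc15a3 (0.41) and Lgmn (0.43). These genes were highest in TCDD emigrants numbered 2 (8.19, 7.52 and 7.97), the array where Ccl3 was highest too (9.43). For Ccl5 the nearest were Pim1 (0.46), Cd244a (0.49) and Plscr1 (0.50), each highest in TCDD thymocytes, a single array, as Ccl5 was. For Cxcl12 they were Cdh11 (0.22), Serping1 (0.24) and Lmo4 (0.25). Cdh11 exceeded the highest control only in TCDD emigrants numbered 2 (5.22), and Serping1 lay under it on most arrays. Those matches rest largely on that array. The neutrophil attractants had looser matches: Bst1 (0.70), Ifitm1 (0.77) and Col1a2 (0.87) for Cxcl1, and Gstm5 (0.90), Rhob (0.99) and Anxa3 (1.04) for Cxcl2.

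Of 24 other chemokine ligands measured, 16 were higher with TCDD in emigrants (median 0.16) and 18 in thymocytes (median 0.16). Over all 12393 genes 5765 and 6380 were, with medians of -0.02 and 0.01. Of the 24 ligands 8 lay under the control on all arrays. None passed in limma, and 1, Pf4, had an unadjusted p under 0.05 in emigrants. Pf4, a platelet CXC ligand, read 9.56 and 11.35 in TCDD emigrants, against 8.07 and 6.52 in dioxane emigrants, and 6.70 in TCDD thymocytes, against 5.56 in dioxane thymocytes (3.16 ± 0.81 in emigrants, limma adjusted p = 1.00). Ppbp, another platelet ligand, read 5.37 and 8.78 in TCDD emigrants, against 5.37 and 4.06 in dioxane emigrants. Ccl2 (1.33 ± 0.97), Ccl12 (1.09 ± 0.88) and Cxcl5 (1.06 ± 0.69) differed by over 1 log2 unit in emigrants, each above the highest control on 1 array alone, the TCDD emigrants numbered 2.

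Of 22 chemokine receptors, 12 were higher with TCDD in emigrants (median 0.03) and 16 in thymocytes (median 0.21). Over all 12393 genes 5765 and 6380 were. Under the control on all arrays lay 4 of the 22. In limma 0 passed in either fit, and none reached an unadjusted p under 0.05 in emigrants. Ccr1, the receptor of Ccl3, Ccl6 and Ccl9, read 6.05 and 8.19 in TCDD emigrants, against 5.85 and 5.25 in dioxane emigrants, and 4.62 in TCDD thymocytes, against 4.06 in dioxane thymocytes (1.57 ± 0.76 in emigrants, limma adjusted p = 1.00). The Cxcl1 and Cxcl2 receptor Cxcr2 read 4.59 and 4.55 in TCDD emigrants and 4.87 and 4.43 in dioxane emigrants, above the highest control of its array on 2 of these 4 arrays.

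**Figure D5:**
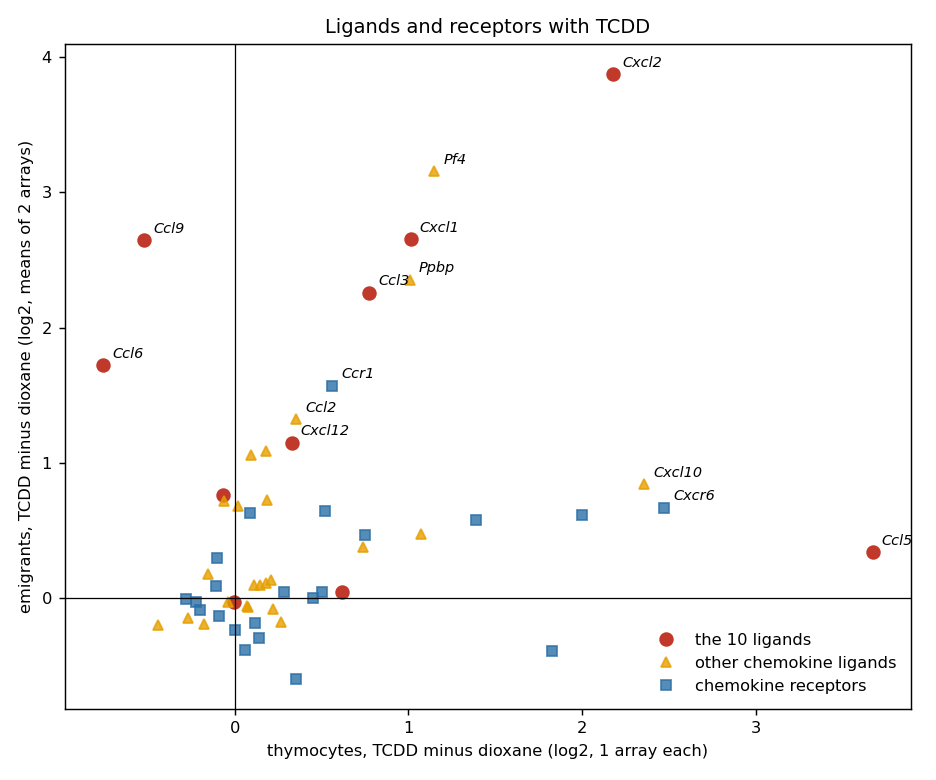
Difference with TCDD in emigrants (vertical axis, log2, means of 2 arrays) against that in thymocytes (horizontal axis, log2, 1 array each) for the 10 ligands, 24 other ligands and 22 receptors. Cxcl2, Cxcl1 and Pf4 are higher on both axes, Ccl6 and Ccl9 lie left of 0 in thymocytes, and Ccl5 lies far right at 3.67.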

How the data were processed

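The deposited values are RMA summaries of 6 Affymetrix arrays (22690 probe sets), on the log2 scale, per the submitters' processing notes. Bioconductor's affy is named in the design text, with no version. RMA corrects background, normalises across arrays, gives no detection calls and understates differences of dim genes.

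The log2 values were used as deposited. The 64 control probe sets were left out, as were 691 with several genes and 1555 with no gene in the platform annotation. Each gene was read by its single-gene probe set of highest mean, which gave 12393 genes. Each comparison was a limma model (version 3.58.1, R 4.3.3), with Benjamini-Hochberg adjustment over all genes and calls at an adjusted p under 0.05. The residual degrees of freedom were 2 (TCDD in emigrants), 3 (TCDD over both sources) and 3 (cell source), and lone arrays are assumed to vary like the others. The thymocyte pair had no test. The ligands, marker lists and rules were chosen with earlier results of these data known. All ligands were named. Other ligands and receptors were named at a difference of at least 1 in emigrants above background, and Cxcr2 and single marker genes after their values were seen. The code was tested on simulated data. Alternatives were other normalisations, a filter on dim genes, an intensity trend, averaged probe sets, blocking on array number and leaving arrays out.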

Additional observations from a re-analysis of the deposited data

Results flagged for a closer look

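Ccl6, Ccl9 and Ccl4 were flagged because both TCDD emigrant arrays exceeded both dioxane emigrant arrays while the TCDD thymocyte array lay under the dioxane thymocyte array. For Ccl6 the TCDD minus dioxane difference was 1.72 in emigrants and -0.76 in thymocytes. For Ccl9 it was 2.65 in emigrants and -0.52 in thymocytes. For Ccl4 it was 0.77 in emigrants and -0.066 in thymocytes. The thymocyte values rest on 1 array each, and the difference between the sources was not tested. No group held enough arrays to look for outlying ones.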

How the results depend on the processing

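Between TCDD and dioxane, limma called 0 genes under every alternative, in emigrants and over both sources. The median over the ligands in emigrants (1.44) was 1.72 with the filter on dim genes (which drops Ccl25), 1.10 with averaged probe sets, and 0.76 to 1.89 when single arrays were left out. Over both sources it was 1.45 with the filter, 0.94 with averaged probe sets, 1.01 without both emigrant arrays numbered 1, 0.72 without both numbered 2 (these omissions were chosen after seeing the data) and 0.78 to 1.44 without single arrays. Averaged probe sets gave 448 genes at least 2-fold different in thymocytes, against 697. For emigrants against thymocytes the fit with the array number as a replicate block called 160 genes, omission of both emigrant arrays numbered 2 called 225, and single omissions called 0 to 7 (7 without the dioxane emigrants numbered 2). No label says that the numbers pair the samples. Across genes the number 1 minus number 2 differences with TCDD and with dioxane correlated at 0.56. No ligand was called under the block. Of the ligands' source differences, those near 0 changed sign: Ccl4 was -0.23 and Xcl1 -0.20 under the replicate block and without both arrays numbered 2, Ccl5 was -0.18 and Cxcl12 0.48 without both numbered 1, and Cxcl12 was 0.048 with cyclic loess. Without single arrays they ran from -0.33 to 0.51 (Ccl4), -1.44 to 1.88 (Ccl5), -0.26 to 0.31 (Xcl1) and -0.44 to 0.39 (Cxcl12). The cause of these moves was not tested, and omissions leave fewer arrays. Array number and dim signal, as for Cxcl1 in dioxane emigrants and for Ccl25, set the limits.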

Other observations

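Several ligands outside the 10 were high on 1 array. Ccl2, a monocyte attractant, read 3.89 and 6.77 in TCDD emigrants and 4.08 and 3.92 in dioxane emigrants. Ccl12 read 3.62 and 6.20 in TCDD emigrants and 3.85 and 3.80 in dioxane emigrants. Both were higher in TCDD emigrants numbered 2, the array that also had the highest Ccl3 (9.43) and Cxcl12 (7.00).

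In the thymocyte pair, chosen after the values were seen, Cxcl10, an interferon-induced ligand of Cxcr3, read 8.52 with TCDD and 6.17 with dioxane. The receptors Cxcr6 (7.58 with TCDD, 5.11 with dioxane), Ccr2 (6.68 and 4.68) and Cxcr3 (7.15 and 5.32) were higher on the same TCDD array as Ccl5 (11.28 and 7.61). These are single arrays with no replicate.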
